A study of Mus musculus with 6 samples.

Results

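The 30 genes described here carry the synthesis of cholesterol, its control by SREBP2, and the transport, uptake and esterification of sterols in the liver. They were taken by symbol from the deposited table of gene expression, in which all 30 had a row among 24346, and all 30 were among the 11493 genes averaging 0.5 FPKM or more (fragments scaled to transcript length and to the mapped total) that were tested. Of these genes 7 encode the enzymes from acetoacetyl-CoA to farnesyl diphosphate, 11 the enzymes from squalene to cholesterol, 6 the SREBP2 control machinery, and 6 proteins that move, take up or esterify sterols. Livers came from male C57BL/6 mice (C57BL/6J in the methods) that were 8 weeks old when the diet began. Both groups ate CDAHFD, a high-fat diet without choline in which defined amino acids replace protein, for 6 weeks, were then injected with an AAV8 vector, and were analysed after 2 weeks on normal chow. The 3 control livers carried LDTS-LIR mut, a lipid droplet-targeting sequence from perilipin fused to an LC3-interacting region that no longer binds LC3, and the 3 lipophagy livers carried LDTS-eLIR, the same targeting sequence with an engineered region that recruits autophagosomes. The vector is expressed from the thyroxine-binding globulin promoter, which is active in hepatocytes, whereas RNA was taken from whole liver, so that fewer cells of a type and less RNA per cell cannot be told apart. The study describes the targeting sequence as mildly lipogenic, and both groups had it.

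Hepatocytes make cholesterol from acetyl-CoA through mevalonate, isoprenoid diphosphates, squalene and lanosterol. When sterols are scarce in the endoplasmic reticulum, SCAP escorts the membrane-bound factor SREBP2 to the Golgi, where the proteases encoded by Mbtps1 and Mbtps2 release its active part, which raises transcription of nearly every enzyme of the pathway. When sterols are abundant, the INSIG proteins hold SCAP and SREBP2 in the endoplasmic reticulum. Surplus sterol is esterified for storage in lipid droplets, exported to high-density lipoprotein, or turned into bile acids, and the lysosome returns sterol from degraded lipoproteins and droplets.

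At an adjusted p below 0.05 (limma, adjusted over every gene tested) stood 0 of the 30 genes, beside 3 of 11493 genes, 0.0261%. At an unadjusted p below 0.05 there were 3 of the 30 genes, 10.0%, against 19.5% of all tested genes. Tm7sf2 and Insig1 were higher in lipophagy livers at this level, where 11.5% of all tested genes were, and Hmgcs1 was lower, where 7.97% were. The groups did not overlap for Tm7sf2 and Ebp, 6.67% of the 30 genes, against 26.2% of all tested genes, and both were higher, the direction of 15.4% of all tested genes. After quantile normalization the groups did not overlap for Tm7sf2, which was higher, and Hmgcs1, which was lower. A higher mean of log2(FPKM + 1), the scale of the test, was found in lipophagy livers for 22 of the 30, 73.3%, against 54.5% of all tested genes (21 of the 30 by mean FPKM), with a median log2 change of 0.070 against 0.020. The sum of FPKM over all genes was 622696 to 681138 in the controls and 709993 to 782392 in lipophagy livers, without overlap. The direction depended on the scaling, since after quantile normalization 14 of the 30 were higher and the median was -0.0094, where that of all tested genes was 0.0074. The median of the absolute log2 change was 0.104 for the 30 genes and 0.125 for all tested genes. For 27 of the 30 genes, 90.0%, the 95% interval of the change included 0, against 80.5% of all tested genes.

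**Figure D1:**
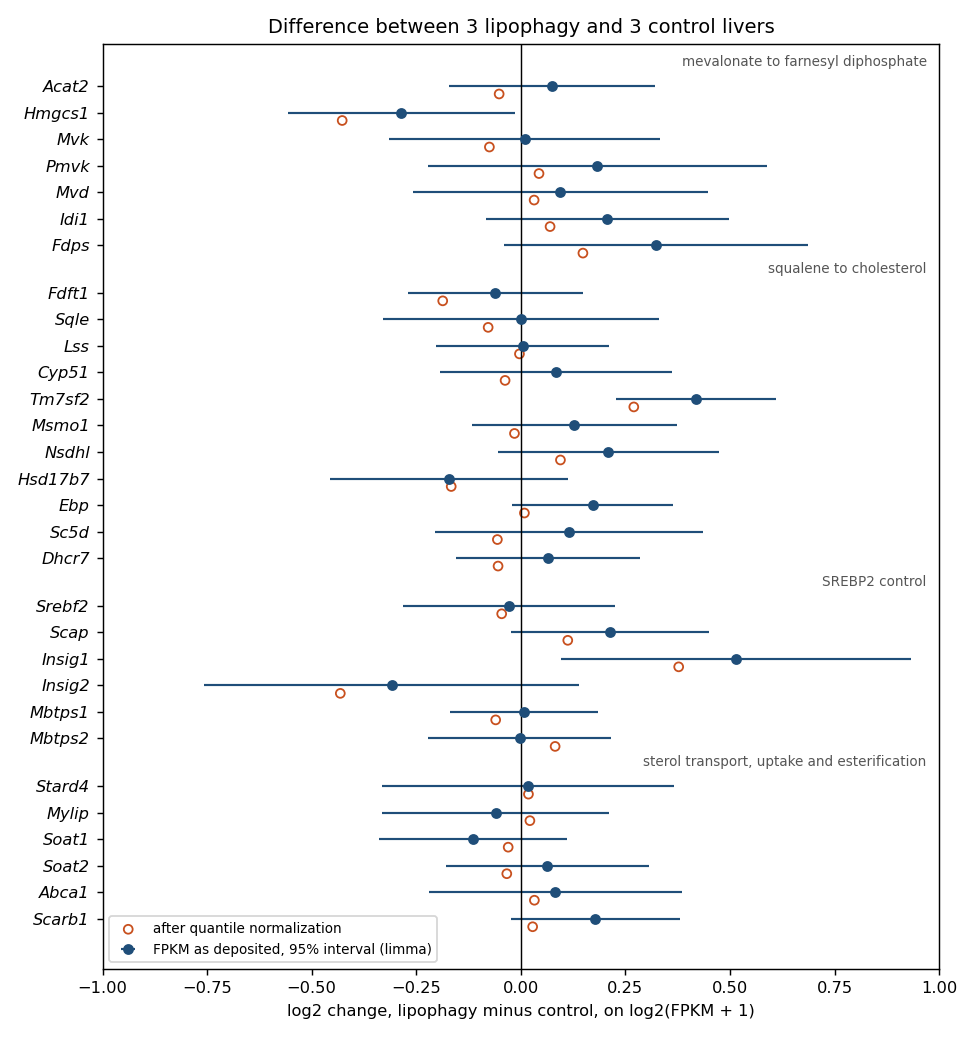
Log2 change (lipophagy minus control, on log2(FPKM + 1)) of each of the 30 genes, with filled points and bars for the deposited values and their 95% interval from limma, and open circles for the change after quantile normalization. The bars of Tm7sf2 and Insig1 lie above 0 and that of Hmgcs1 below it, and open circles lie left of the filled points for most genes.

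The bases upstream of 3 genes are shown because these genes had the lowest unadjusted p and differ in direction. Windows of 250 bases before the transcription start were taken from RefSeq (GRCm38.p6, the assembly of the mm10 build that the submitters' processing notes name), where 24 of the 30 genes had a window. Fdps, Fdft1, Sqle, Stard4, Soat2 and Scarb1 had none. Capitals mark matches on either strand to the sterol regulatory element core TCACCCCAC, to CCAAT, the letters bound by NF-Y, which read ATTGG on the other strand, and to GGGCGG, the letters bound by Sp1, which read CCGCCC on the other strand. The capitals of different motifs do not overlap in these windows. The windows are Hmgcs1 at chr13:119690101-119690350 (+ strand), Insig1 at chr5:28071162-28071411 (+ strand) and Tm7sf2 at chr19:6067851-6068100 (- strand), each written on the strand of its gene.

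Hmgcs1: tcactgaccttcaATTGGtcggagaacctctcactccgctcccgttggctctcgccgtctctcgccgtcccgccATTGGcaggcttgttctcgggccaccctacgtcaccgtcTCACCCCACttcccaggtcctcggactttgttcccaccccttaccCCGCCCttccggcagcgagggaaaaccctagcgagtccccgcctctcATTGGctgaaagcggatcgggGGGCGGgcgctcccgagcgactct

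Insig1: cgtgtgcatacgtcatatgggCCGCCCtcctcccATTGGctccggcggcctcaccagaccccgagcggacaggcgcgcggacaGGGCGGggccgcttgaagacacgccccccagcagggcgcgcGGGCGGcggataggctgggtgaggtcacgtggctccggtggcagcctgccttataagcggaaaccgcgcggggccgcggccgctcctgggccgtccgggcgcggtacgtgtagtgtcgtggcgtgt

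Tm7sf2: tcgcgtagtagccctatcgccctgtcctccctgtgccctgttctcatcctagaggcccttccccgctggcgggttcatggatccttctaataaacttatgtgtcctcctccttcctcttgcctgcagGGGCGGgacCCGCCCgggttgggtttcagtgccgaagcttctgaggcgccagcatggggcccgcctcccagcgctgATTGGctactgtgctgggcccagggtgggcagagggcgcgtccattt

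The core TCACCCCAC was found in the window of 1 of the 24 genes, Hmgcs1, from 137 to 129 bases before the start, and in 0.496% of all 32851 windows. With any base at the fifth place (TCACNCCAC) the same gene alone matched, at the same place, beside 1.05% of all windows. CCAAT was found for 19 of the 24 genes, against 33.8% of all windows, and GGGCGG for 21 of the 24, against 32.7%. Several genes had more than 1 window, namely Dhcr7 and Insig2 with 3 each and Pmvk and Scap with 2 each, and a match in any of them was counted. These are matches of letters in a short window and do not show binding.

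Per length of transcript, the levels of the 30 genes spanned from 1.27 ± 0.156 FPKM (SD over the 6 livers) for Mbtps2 to 164 ± 31.3 FPKM for Fdps. Sc5d, a sterol desaturase near the end of the pathway, followed at 164 ± 23.6 FPKM, then Ebp, the sterol isomerase before it, at 119 ± 10.3 FPKM, and Insig1 at 93.6 ± 26.4 FPKM. Fdps and Sc5d did not differ beyond their spread. Synthesis enzymes at the low end were Hsd17b7 at 5.09 ± 0.776 FPKM and Lss, the lanosterol synthase, at 5.69 ± 0.405 FPKM. Srebf2, which encodes SREBP2, was at 6.35 ± 0.675 FPKM, below all but these 2 of the 18 synthesis enzymes. Fragment numbers estimated from the steps of low FPKM values were between 69.8 and 134 for Mylip and between 119 and 161 for Mbtps2, so counting error is a part of their spread.

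**Figure D2:**
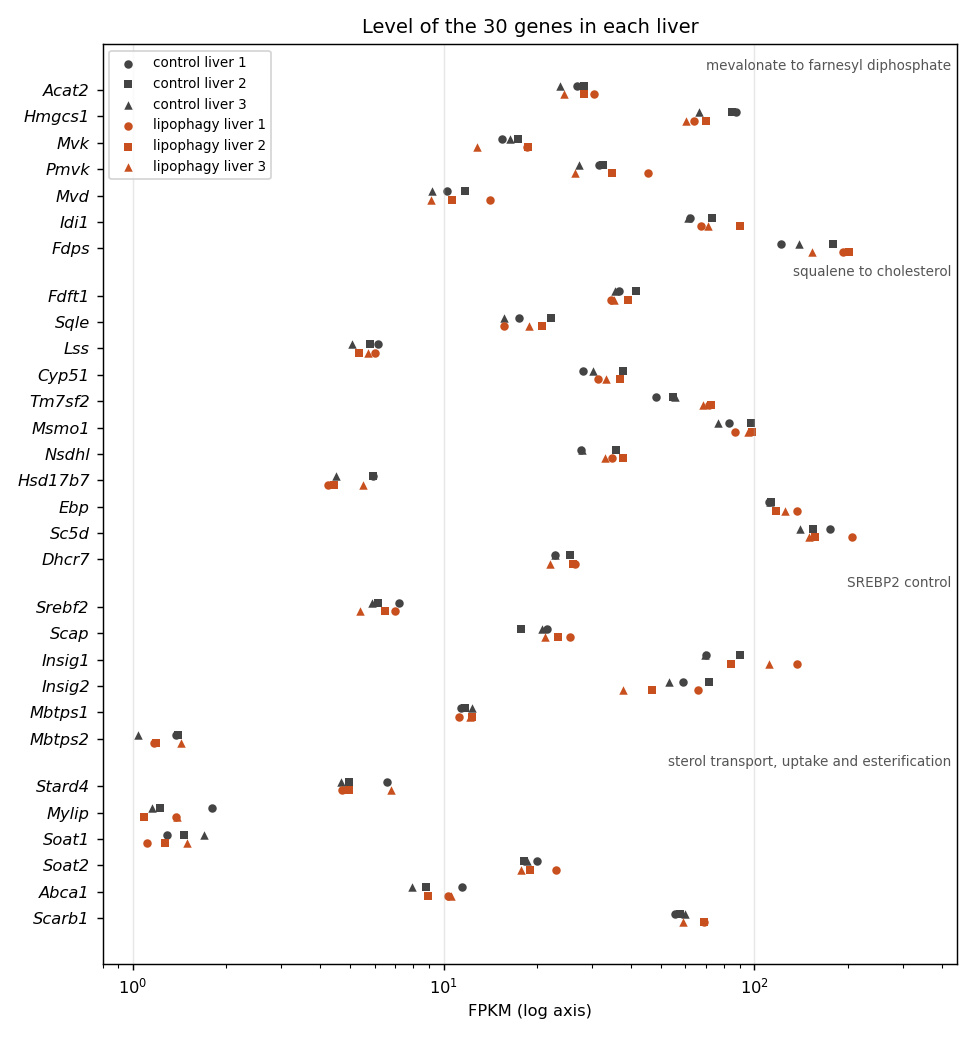
FPKM of each gene (log axis) in the 3 control livers (dark grey, upper row of each gene) and the 3 lipophagy livers (orange, lower row), with circles, squares and triangles for livers 1, 2 and 3. Grey and orange symbols interleave for most genes and are apart for Tm7sf2 and Ebp.

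In the first segment of the pathway, 6 of 7 enzymes had a higher mean in lipophagy livers, against 54.5% of all tested genes, and 4 of 7 did after quantile normalization, against 52.0%. Hmgcs1, near the start, was lower under both. Hmgcs1, the cytosolic HMG-CoA synthase that commits carbon to mevalonate, was at 87.3, 84.6 and 66.5 FPKM in controls 1, 2 and 3, against 63.9, 69.7 and 60.4 FPKM in lipophagy livers 1, 2 and 3. Control livers 1 and 2 lay above all lipophagy livers, and control liver 3 lay among them, so the groups overlapped, while after quantile normalization they did not. The log2 change was -0.29 (standard error 0.12, unadjusted p = 0.0412, adjusted p = 0.244, limma). Leaving out a liver gave an unadjusted p of 0.127 (control 1), 0.130 (control 2), 0.0831 (lipophagy 1), 0.115 (lipophagy 3), 0.00503 (control 3) or 0.0376 (lipophagy 2), while the change kept its sign in 14 of 14 alternatives, between -0.43 and -0.21. Of its longest coding transcript, 10.8% of the stretches of 100 bases, the read length, lie opposite to Gm48342, and whether reads were counted by strand is not given in the sources used here.

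Farther along this segment the means were on the other side. Fdps, the farnesyl diphosphate synthase, was at 146.5 ± 29.0 FPKM (SD, n = 3) in the controls, against 182 ± 25.3 FPKM (SD, n = 3) after lipophagy, with log2 change 0.32 (standard error 0.16, adjusted p = 0.296, limma). Control liver 2 lay within the lipophagy livers for this gene, and the change was 0.47 when that liver was left out (unadjusted p = 0.0125), 0.44 when lipophagy liver 3 was (unadjusted p = 0.0271), 0.20 when control liver 1 was, and 0.15 after quantile normalization. With a block for the replicate number, the unadjusted p of Fdps was 0.0350, against 0.0743 without it (limma). For Fdps, 75.8% of the stretches of 100 bases also occur in transcripts annotated under other gene names, Gm43738 sharing most, so its value is uncertain. Idi1, the isomerase that makes the allylic substrate of Fdps, was at 65.5 ± 6.72 FPKM in the controls, against 76.1 ± 12.1 FPKM in lipophagy livers (log2 change 0.21, standard error 0.13, adjusted p = 0.386, limma). The change of Idi1 was 0.082 without lipophagy liver 2 and 0.070 after quantile normalization. It shares 20.0% of its stretches, most with Gm13502.

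The 3 enzymes that phosphorylate and decarboxylate mevalonate differed by less than the spread between livers. Mvk, the mevalonate kinase, had a log2 change of 0.0088 (95% interval -0.31 to 0.33), Pmvk, the phosphomevalonate kinase, one of 0.18 (-0.22 to 0.59), and Mvd, the diphosphate decarboxylase, one of 0.095 (-0.26 to 0.45). Lipophagy liver 1 was the highest liver for Pmvk and Mvd, whose changes were -0.0051 and -0.064 without it. Without lipophagy liver 3 the change of Pmvk was 0.37 (unadjusted p = 0.0292, limma). Acat2, the cytosolic thiolase of the first step, had a log2 change of 0.075 (95% interval -0.17 to 0.32), and it shares 35.3% of its stretches with its neighbour and near copy Acat3, which had a change of 0.070.

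Among the 11 enzymes that turn farnesyl diphosphate into cholesterol, 9 had a higher mean of log2(FPKM + 1) in lipophagy livers, and 8 a higher mean FPKM, Sqle being the gene that differs between these scales. Of all tested genes 54.5% were higher on the log2 scale. Of the 11, 3 (Tm7sf2, Nsdhl and Ebp) were higher after quantile normalization, against 52.0%. Tm7sf2 encodes a sterol reductase of the endoplasmic reticulum that acts right after the demethylation of lanosterol by CYP51. The lamin B receptor can carry out the same reduction. It was at 48.2, 54.8 and 55.5 FPKM in controls 1, 2 and 3, against 71.3, 72.6 and 68.6 FPKM in lipophagy livers 1, 2 and 3. Each lipophagy liver lay above each control liver, with a gap larger than the SD of either group (4.03 and 2.05 FPKM). The log2 change was 0.42 (standard error 0.083, 95% interval 0.23 to 0.61, unadjusted p = 0.001005, adjusted p = 0.124, limma). The unadjusted p was below 0.05 in 14 of 14 alternatives, with changes from 0.27 after quantile normalization to 0.46 without control liver 3, and the adjusted p stayed between 0.121 and 0.335.

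Ebp, the isomerase that shifts the double bond of the sterol nucleus, was at 111, 113 and 112 FPKM in controls 1, 2 and 3, against 137, 117 and 125 FPKM in lipophagy livers 1, 2 and 3. The control livers were nearly equal and all lipophagy livers were above them. The log2 change was 0.17 (standard error 0.084, unadjusted p = 0.0753, adjusted p = 0.298, limma), and it was 0.23 without lipophagy liver 2 (unadjusted p = 0.0485) and 0.0085 after quantile normalization. The genes of the complex that removes methyl groups from the sterol nucleus had means on both sides. Nsdhl, its dehydrogenase, had a log2 change of 0.21 (95% interval -0.056 to 0.47) and Msmo1, the methyl oxidase of the same complex, one of 0.13 (-0.12 to 0.37), whereas Hsd17b7, its ketoreductase, had one of -0.17 (-0.46 to 0.11). Without control liver 2 the change was 0.33 for Nsdhl (unadjusted p = 0.0126, limma) and 0.23 for Msmo1, which was at 0.051 without control liver 3. That of Hsd17b7 was -0.28 without control liver 3 (unadjusted p = 0.0501, limma) and -0.11 without lipophagy liver 1.

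Sqle, the squalene epoxidase and a main point of control, was at 18.5 ± 3.35 FPKM (SD, n = 3) in the controls, against 18.4 ± 2.55 FPKM (SD, n = 3) in lipophagy livers, with a 95% interval of the log2 change from -0.33 to 0.33. Lss was at 5.68 ± 0.553 and 5.69 ± 0.321 FPKM, with an interval from -0.20 to 0.21. Fdft1, the squalene synthase, was at 38.0 ± 3.18 and 36.4 ± 2.53 FPKM, a log2 change of -0.061 (-0.27 to 0.15), and 18.8% of its stretches lie opposite to the abundant lysosomal gene Ctsb. Cyp51 (0.084, -0.19 to 0.36), Sc5d (0.12, -0.20 to 0.44) and Dhcr7, the reductase of the last step (0.064, -0.16 to 0.28), differed by less than the spread between livers too.

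Differences between livers of the same group were as large as those between the groups for many enzymes, and several enzymes followed the same order of livers. Control liver 2 was the highest control liver for 14 of the 18 synthesis enzymes and the lowest for 0, and control liver 3 was the lowest for 11. Lipophagy liver 2 was the highest of its group for 10 of the 18, and lipophagy liver 3 the lowest for 10. For Mvk, Idi1, Fdps, Fdft1, Sqle, Cyp51, Msmo1 and Nsdhl, 8 of the 18, the livers numbered 2 were the highest of both groups, although the number is not said to mark a shared litter or day. Averaged over the 18 enzymes, the deviation from the mean of the 6 livers was -0.067, 0.089 and -0.15 in controls 1, 2 and 3, against 0.091, 0.098 and -0.059 in lipophagy livers 1, 2 and 3 on the log2 scale. Control liver 2 and lipophagy livers 1 and 2 were thus almost level, and lipophagy liver 3 lay beside control liver 1. The enzymes were measured in the same livers and are not independent of each other.

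**Figure D3:**
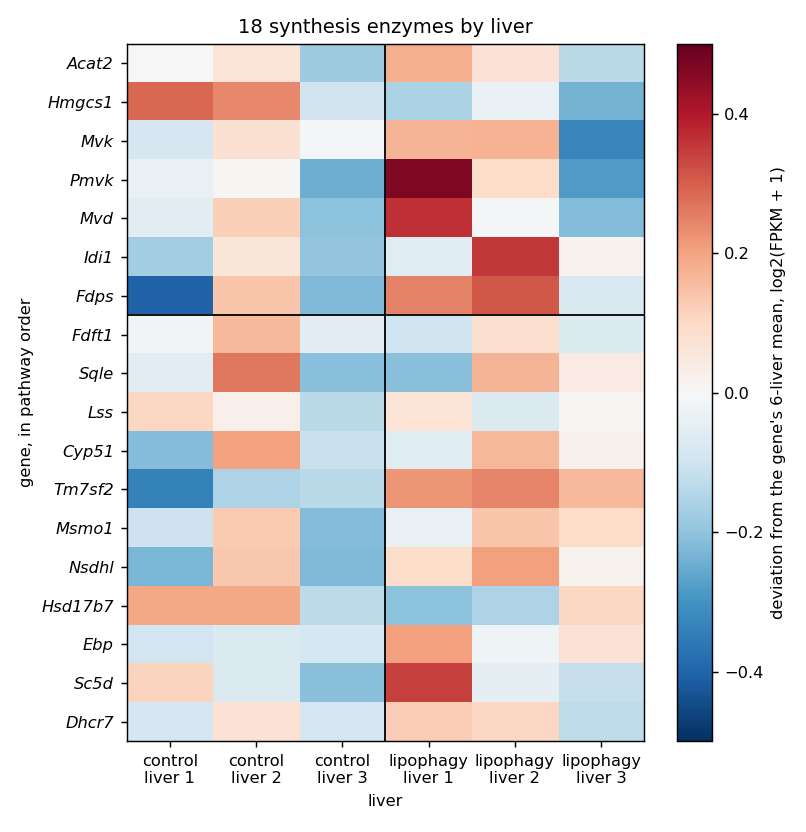
Deviation of log2(FPKM + 1) from each gene's mean over the 6 livers (color, red above and blue below) for the 18 synthesis enzymes in pathway order, with 1 column per liver and a line between the groups. Control liver 2 and lipophagy liver 2 are red for Idi1, Fdps, Sqle, Cyp51, Msmo1 and Nsdhl, while Hmgcs1 is red in control livers 1 and 2 only and Tm7sf2 is blue in the control livers and red in the lipophagy livers.

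Within the control machinery the INSIG genes had means on opposite sides. Insig1, whose product retains SCAP and whose own transcription is driven by SREBPs, was at 69.7, 89.9 and 69.6 FPKM in controls 1, 2 and 3, against 137, 83.8 and 112 FPKM in lipophagy livers 1, 2 and 3. Lipophagy livers 1 and 3 were above all control livers, and lipophagy liver 2 lay below control liver 2. The log2 change of Insig1 was 0.51 (standard error 0.18, unadjusted p = 0.0217, adjusted p = 0.204, limma), higher than 98.5% of the changes of all tested genes. Its unadjusted p was 0.0663 (control 1 left out), 0.0692 (control 3), 0.0704 (lipophagy 1), 0.0549 (lipophagy 3), 0.0125 (control 2), 0.00199 (lipophagy 2) and 0.0541 after quantile normalization, with changes between 0.35 and 0.70 over 14 alternatives.

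Insig2, the paralog whose liver transcript is not an SREBP target and is lowered by insulin, was at 58.9, 71.2 and 53.1 FPKM in controls 1, 2 and 3, against 65.6, 46.7 and 37.7 FPKM in lipophagy livers 1, 2 and 3. Lipophagy livers 2 and 3 were below all control livers, and lipophagy liver 1 lay within them. The log2 change was -0.31 (standard error 0.19, unadjusted p = 0.150, adjusted p = 0.399, limma), -0.52 without lipophagy liver 1, with an unadjusted p of 0.00992, and -0.13 without lipophagy liver 3. After quantile normalization the unadjusted p was 0.0408, at a change of -0.43.

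The ratio of Insig1 to Insig2 within a liver, in which a scale factor common to the genes of that liver cancels, was 1.18, 1.26 and 1.31 in controls 1, 2 and 3, against 2.09, 1.79 and 2.96 in lipophagy livers 1, 2 and 3. No lipophagy liver had a ratio as low as any control, whereas each gene alone had overlapping groups. Insig1 and Insig2 had the highest and the lowest change of the 30 genes, and the ratio was chosen with earlier results of these data known, so its separation is a description and no support beyond the values of the genes. The log2 ratio was 0.32 ± 0.075 (SD, n = 3) in the controls, against 1.16 ± 0.37 (SD, n = 3) in lipophagy livers, a difference of 0.84 (two-sided exact permutation test, p = 0.1, the smallest that 3 livers against 3 can give). When single livers were left out the difference lay between 0.63 and 0.99, and it was 0.81 after quantile normalization.

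**Figure D4:**
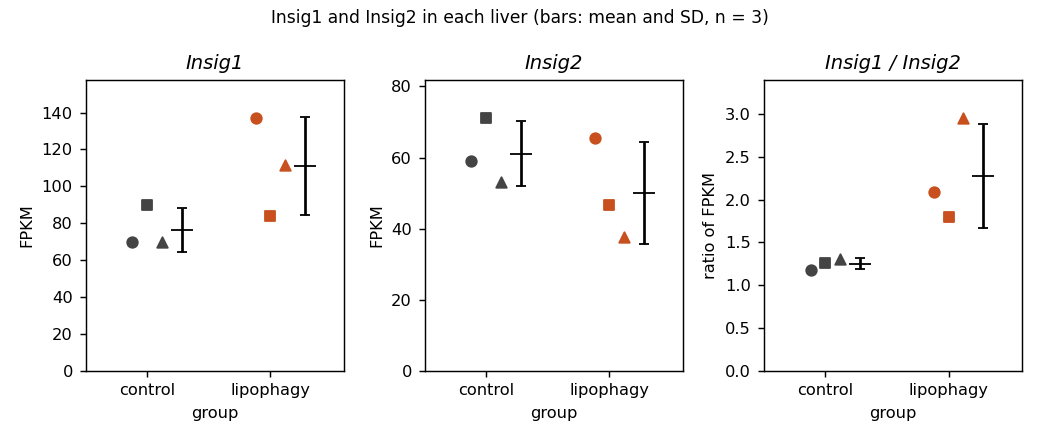
FPKM of Insig1 (left) and Insig2 (middle) and their ratio (right) in the 3 control livers (grey) and 3 lipophagy livers (orange), with circles, squares and triangles for livers 1, 2 and 3 and bars for mean and SD. The symbols overlap between groups for each gene and are apart for the ratio, at 1.18 to 1.31 in control livers and 1.79 to 2.96 in lipophagy livers.

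The transcripts of the regulator and its escort differed by less than those of the INSIG genes. Srebf2 was at 7.19, 6.17 and 5.88 FPKM in controls 1, 2 and 3, against 6.97, 6.46 and 5.39 FPKM in lipophagy livers 1, 2 and 3, ranges that overlap almost fully. Its log2 change was -0.029 (95% interval -0.28 to 0.22). Scap was at 21.5, 17.8 and 20.7 FPKM in controls 1, 2 and 3, against 25.5, 23.4 and 21.1 FPKM in lipophagy livers 1, 2 and 3. Control liver 1 lay above lipophagy liver 3, and the other livers were apart by group (log2 change 0.21, standard error 0.10, unadjusted p = 0.0717, adjusted p = 0.293, limma). The change of Scap was 0.13 without control liver 2, 0.28 without lipophagy liver 3 (unadjusted p = 0.0324, limma) and 0.11 after quantile normalization. Of its stretches, 7.22% lie opposite to 5830462I19Rik. The proteases of the Golgi were level, Mbtps1 at 11.8 ± 0.4997 and 11.9 ± 0.578 FPKM (SD, n = 3 and 3) with a 95% interval of the log2 change from -0.17 to 0.18, and Mbtps2 at 1.27 ± 0.201 and 1.26 ± 0.142 FPKM with an interval from -0.22 to 0.22. Processing of SREBP2 is a step of the protein and was not measured.

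Of the 6 genes of sterol transport, uptake and esterification, 0 had an unadjusted p below 0.05, against 19.5% of all tested genes, and 0 had groups that did not overlap, against 26.2%. Scarb1, the receptor for high-density lipoprotein, was nearest, at 57.8 ± 2.09 FPKM (SD, n = 3) in the controls, against 65.6 ± 5.66 FPKM (SD, n = 3) in lipophagy livers (log2 change 0.18, standard error 0.088, unadjusted p = 0.0770, adjusted p = 0.3004, limma), and its change was 0.25 without lipophagy liver 3 (unadjusted p = 0.0165) and 0.028 after quantile normalization. Abca1, the exporter of cholesterol to apolipoprotein, was at 9.40 ± 1.83 and 9.92 ± 0.906 FPKM, and Mylip, the ubiquitin ligase that sends lipoprotein receptors to degradation and is, like Abca1, a target of the liver X receptors, at 1.39 ± 0.352 and 1.285 ± 0.170 FPKM. The 95% intervals of their log2 changes were -0.22 to 0.39 and -0.33 to 0.21. Stard4, a soluble sterol carrier and SREBP2 target, had a log2 change of 0.017 (-0.33 to 0.37).

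The pair of enzymes that esterify cholesterol differed in level by more than in change. Soat2, the form of hepatocytes, was at 18.9 ± 0.972 FPKM (SD, n = 3) in the controls, against 19.9 ± 2.77 FPKM (SD, n = 3) in lipophagy livers, and Soat1, the form of macrophages and many other cells, at 1.48 ± 0.203 and 1.29 ± 0.190 FPKM. The ratio of Soat1 to Soat2 was 0.0644, 0.0811 and 0.0909 in controls 1, 2 and 3, against 0.0485, 0.0671 and 0.0842 in lipophagy livers 1, 2 and 3, with overlapping groups (difference of log2 ratios -0.26, two-sided exact permutation test, p = 0.5). This difference was -0.054 without lipophagy liver 1, -0.45 without lipophagy liver 3 and 0.0033 after quantile normalization.

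Summed marker levels did not overlap between the groups for hepatocytes and stellate cells, and overlapped for macrophages, lymphocytes, neutrophils, endothelial, bile duct and red blood cells, each sum being over the genes tested. These sums are not scaled to the total FPKM of a liver. That total did not overlap between the groups either, at 622696 to 681138 in the controls, against 709993 to 782392 in lipophagy livers. The most abundant marker was Alb for hepatocytes, Lyz2 for macrophages and Spp1 for bile duct cells. All 12 hepatocyte markers listed were measured, and their summed level was 69670 to 77030 FPKM in the controls, against 82610 to 110500 FPKM in lipophagy livers. Higher were 11 of 12, against 54.5% of all tested genes, and 7 of 12 after quantile normalization, against 52.0%. Of 14 macrophage markers 10 were lower, the sum being 555.8 to 737.1 FPKM in the controls, against 549.4 to 677.8 FPKM in lipophagy livers, and of 12 stellate cell markers 11 were lower, at 184.5 to 194.7 against 146.1 to 173.5 FPKM. Among 10 endothelial markers 8 were higher (32.6 to 40.8 against 37.8 to 57.6 FPKM), and all 6 tested bile duct markers were lower (141.6 to 251.8 against 96.0 to 201.3 FPKM). Of 3 lymphocyte genes tested 2 were lower (sums 3.27 to 4.71 against 3.005 to 4.19 FPKM), and of 2 neutrophil genes tested 2 were lower (17.4 to 29.9 against 14.8 to 17.5 FPKM). A higher level was found for 4 of 4 red blood cell genes tested, with sums of 92.5 to 103 FPKM in the controls, against 103 to 252 FPKM in lipophagy livers. Hba-a1 was at 141 FPKM in lipophagy liver 2, but at 23.3 and 19.2 FPKM in lipophagy livers 1 and 3, within the controls (14.7 to 28.9 FPKM). Hba-a2 was near 0.02 FPKM in the controls and lipophagy liver 3, and Hbb-bs near 0.003 FPKM in controls 1 and 2 and lipophagy liver 1. After quantile normalization the counts for the cell types other than hepatocytes were the same, except that 1 of 6 bile duct markers was higher. The neutrophil gene Mpo was at 0 in control liver 1 and Elane in lipophagy liver 3. The part of these differences in the values of Tm7sf2, Ebp, Scarb1 or Soat1 was not tested.

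Neighbouring pathways were read from lists beside the 30 genes. In the isoprenoid branches that leave at farnesyl diphosphate toward dolichol, ubiquinone and prenylated proteins, 8 of 10 genes were higher, with a median log2 change of 0.13, 3 with an unadjusted p below 0.05 and 5 with groups that did not overlap, all higher. Of all tested genes 54.5% were higher, 11.5% were higher at this p, and 15.4% were higher without overlap. Dhdds, a subunit of the dolichol-forming prenyltransferase, had the largest value, 0.35 (standard error 0.080, from 8.23 ± 0.306 to 10.7 ± 0.733 FPKM), and Srd5a3, the polyprenol reductase, the lowest, -0.030 (standard error 0.074). Of the genes for sterol-regulated degradation in the endoplasmic reticulum, 7 of 10 were higher (median 0.12), 2 with an unadjusted p below 0.05 and 3 without overlap, both counts higher only. They ran from Erlin2 at -0.16 to the ubiquitin ligase Syvn1 at 0.71 (standard error 0.19), which was at 20.5 ± 3.74 FPKM in the controls, against 34.5 ± 7.76 FPKM in lipophagy livers. For intracellular sterol transport 5 of 9 tested genes were higher (median 0.061). At an unadjusted p below 0.05 there was 1 gene, higher, and without overlap there were 2 higher and 1 lower. Osbp, the oxysterol-binding protein, had the largest value (0.30) and the cholesteryl ester hydrolase Nceh1 the lowest (-0.26). Among 9 liver X receptor genes and targets 6 were higher (median 0.095), but the genes with an unadjusted p below 0.05 (0 higher, 2 lower) and those without overlap (0 higher, 3 lower) were lower, where 7.97% and 10.8% of all tested genes were. They ran from the sterol exporter Abcg1 at -0.20, whose groups did not overlap, to Srebf1, which encodes SREBP1, at 0.59 (standard error 0.31) with a wide spread, at 37.9 ± 9.68 FPKM in the controls, against 60.3 ± 27.4 FPKM in lipophagy livers. After quantile normalization 9 of 10, 5 of 10, 4 of 9 and 4 of 9 genes of these lists were higher, with medians of 0.105, 0.019, -0.023 and -0.044. The adjusted p of these named genes lay above 0.05 (limma).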

How the data were processed

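RNA from whole livers of 3 control and 3 lipophagy mice was sequenced as stranded poly(A) libraries in paired-end mode. The deposited table, made by the authors, gives FPKM per gene symbol in each of the livers, and the submitters' processing notes name TopHat2 2.0.13, Bowtie2 2.2.3, SAMtools 0.1.19, Cufflinks 2.2.1 and mm10. The annotation and strand setting are not given in the sources used here. FPKM is scaled to the total and to length, so a few abundant genes can shift all others, and sums of FPKM were 622696 to 681138 in control and 709993 to 782392 in lipophagy livers. Groups and replicate numbers came from the sample titles. The labels do not say how the livers were chosen from the mice of each group, and p-values measure the spread between these livers.

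The scale was log2(FPKM + 1), on which changes of low genes come out too small. Tests used limma 3.58.1 in R 4.3.3 (moderated variance, intensity trend, two-sided) on the 11493 genes averaging 0.5 FPKM or more, with p adjusted by Benjamini-Hochberg over these genes (threshold 0.05). The fit was tested on simulated data. Ratios within a liver were compared by exact permutation. Low FPKM values lay on steps of whole fragments (37.5% to 71.5% of 1588 to 1756 low genes within a tolerance of 0.001 in the natural log), and the depth relative to control liver 1 was 0.856 to 1.27. With GENCODE M21 transcript lengths this gave fragment numbers per gene that depend on the lengths assumed. Stretches of 100 bases of the longest coding transcript were looked up in all GENCODE transcripts on both strands. Numbers 1 to 3 were not used as pairs in the main fit, since they are not said to mark pairs. Python 3.11.15 and pandas 2.3.3 were used for tables.

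The 30 members, the gene lists and the tests were chosen with earlier results of these data known. All members were accounted for. Values in every liver were given for members with an unadjusted p below 0.05 or groups that did not overlap and for Srebf2, Scap, Insig1 and Insig2, and each context list was described by counts, its median and the genes with the highest and lowest change. The 3 promoter windows printed were chosen after the values of their genes were seen.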

Additional observations from a re-analysis of the deposited data

How the results depend on the processing

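Alternatives were pseudocounts of 0.1 and 0.5, no filter or a minimum mean of 1 FPKM, quantile normalization, an equal median in each liver, limma without trend, a replicate block and each liver left out. In none of the 14 did a member pass an adjusted p below 0.05. Quantile normalization gave 1 member higher and 2 lower at an unadjusted p below 0.05, where 6.48% and 7.82% of all tested genes were, and a median change of -0.0094. It turned the log2 change of Acat2 (-0.052), Mvk (-0.075), Sqle (-0.078), Lss (-0.0034), Cyp51 (-0.038), Msmo1 (-0.015), Sc5d (-0.056), Dhcr7 (-0.055), Mbtps1 (-0.060), Mbtps2 (0.082), Mylip (0.022) and Soat2 (-0.034). The cause was not tested.

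With each liver left out in turn, 1 to 5 members were higher and 0 to 1 lower at an unadjusted p below 0.05, where 6.95% to 14.0% and 5.20% to 8.20% of all tested genes were. The 5 came without lipophagy liver 3, as did the 14.0%. The log2 change then crossed 0 for Mvk (-0.076 to 0.18), Sqle (-0.10 to 0.13), Cyp51 (-0.0034 to 0.21), Srebf2 (-0.098 to 0.061), Mbtps1 (-0.017 to 0.045), Mbtps2 (-0.079 to 0.038), Mylip (-0.13 to 0.057), Fdft1 (-0.12 to 0.0050), Stard4 (-0.12 to 0.15), Lss (-0.062 to 0.057), Abca1 (-0.019 to 0.22), Pmvk (-0.0051 to 0.37), Mvd (-0.064 to 0.23), Sc5d (-0.025 to 0.20) and Soat2 (-0.041 to 0.14).

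Livers with the same number did not all deviate together (correlations 0.25, 0.23 and -0.057 over 11493 genes), so the numbers are not read as pairs. With the replicate block 3 members were higher and 1 lower at an unadjusted p below 0.05 (9.86% and 7.93% of all tested genes), and 43 of all tested genes against 3 passed the adjustment. Alternatives for the ratios within a liver, and the counts per gene list after quantile normalization, were chosen after seeing the data. The difference of log2 ratios of Soat1 to Soat2 was 0.0033 after quantile normalization, while that of Insig1 to Insig2 kept its direction in 8 of 8 alternatives. Depth limits Mylip, Mbtps2 and Soat1 most.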
